A study of Mus musculus with 8 samples.

Results

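The genes examined here encode the nuclear subunits of the mitochondrial respiratory chain, cytochrome c and the ATP synthase. They were taken by gene symbol from an Illumina mouse bead chip: every probe whose symbol begins with Nduf, with Sdh followed by a, b, c or d, or with Uqcr, Cox4i, Cox5, Cox6, Cox7, Cox8 or Atp5, together with Cycs and Cyc1. This gave 121 of the 45281 probes on the array, for 82 of 30789 gene symbols. By complex, 54 probes stood for 37 genes of complex I, 8 probes for 4 genes of complex II, 9 probes for 8 genes of complex III, 22 probes for 16 genes of complex IV and 25 probes for 16 genes of complex V, and Cycs had 3 probes. The symbols are those of the array's design, and some have since been replaced. Ndufa12l is now Ndufaf2, Uqcr is Uqcr11, Atp5f1 is Atp5pb, Atp5s is Dmac2l and Atp5sl is Dmac2. The symbol rule therefore also takes in genes that are not structural subunits, such as the complex I assembly factors Ndufaf1 and Ndufa12l. Genes were placed in a complex by these symbols too, so Dmac2l and Dmac2 are counted with complex V.

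The samples were peritoneal macrophages elicited with thioglycollate from C57/BL6 mice of 8 weeks. Cells of 4 cultures received 120 μg/ml of acetylated low-density lipoprotein (Ac-LDL) for 24 h, and 4 mock-treated cultures served as controls, so that the comparison asks which transcripts differ once macrophages are loaded with modified lipoprotein. Ac-LDL is a chemically modified LDL that macrophages take up through scavenger receptors, and the cells fill with cholesterol. The labels number the biological replicates 1 to 4 in each group but do not say whether a replicate was 1 animal or a pool, so the p-values measure the spread between these cultures.

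All 6 macrophage markers on the array, among them Lyz2, Cd68 and Emr1, were detected on all 8 arrays. Of 6 fibroblast and mesothelial markers, Col1a1, Col1a2, Col3a1, Dcn and Upk3b were also detected on all 8 arrays, and the summed log2 level of the list ranged from 56.4 to 57.4 in control and from 56.3 to 57.5 in Ac-LDL cultures. Within it, Col1a2 ranged from 9.42 to 9.47 in control and from 9.07 to 9.38 in Ac-LDL cultures (difference -0.23, adjusted p = 0.887 by limma). The differences were -0.21 for Col3a1 and -0.04 for Dcn, and 0.05 for Col1a1 and 0.07 for Upk3b. None of 5 T-cell, 3 eosinophil, 2 mast-cell and 6 muscle markers was detected on 4 or more arrays, while 1 of 3 B-cell markers (Ms4a1) and 1 of 4 neutrophil markers (S100a8) was. S100a8 ranged from 9.11 to 9.27 in control and from 9.34 to 9.49 in Ac-LDL cultures (difference 0.24, adjusted p = 0.845 by limma). The groups did not overlap for S100a8 or Col1a2, which was also so for 3.8% of all tested probes. The arrays measured a mixture of cells, so fewer cells of a type and less RNA per cell cannot be told apart.

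The respiratory chain passes electrons from NADH, through complex I, or from succinate, through complex II, to ubiquinone, then through complex III, cytochrome c and complex IV to oxygen. Complexes I, III and IV pump protons across the inner mitochondrial membrane, and complex V, the ATP synthase, uses the gradient to make ATP. Most subunits are encoded in the nucleus, and a few core subunits of complexes I, III, IV and V in mitochondrial DNA. In macrophages the balance between respiration and glycolysis is known to shift with the state of activation, and the oxidation of succinate by complex II can drive the formation of reactive oxygen species at complex I.

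An array value is the binding of labelled RNA to 1 stretch of 50 bases, so the probes themselves come first. The first 30 bases of each are printed, 5′ to 3′, for genes whose probes gave unlike values, with the letters as in the deposited annotation. Ndufs4, a complex I subunit needed late in assembly, was read by 4 probes that share no base, starting at positions 93, 441, 209 and 557 of its transcript in this order:
Ndufs4 probe at 93: gagcacatccacttggaagctggcagacaa
Ndufs4 probe at 441: ggttccgaaacccaagtccaagtcttatgg
Ndufs4 probe at 209: ccagaaaggtcagaatctttgttcctgctc
Ndufs4 probe at 557: gtcagctgtgcactatttatagtccatgga

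The probe at 93 holds 58% G and C over its 50 bases, and those at 441, 209 and 557 hold 44%, 46% and 42%. Ndufa5, another accessory subunit of complex I, had a bright probe with 58% G and C and a dim one with 38%:
Ndufa5 bright probe: ctggtggggttggcggtgtgcgacactcca
Ndufa5 dim probe: caaagactcttgatattctgaagcactttc

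Atp5f1, the b subunit in the peripheral stalk of the ATP synthase, was read by 4 probes with 58%, 48%, 40% and 56% G and C:
Atp5f1 probe at 607: gtgtctgaagaacgcggccgccctaggtcc
Atp5f1 probe at 760: cctttaccctaagactggtgtaacaggacc
Atp5f1 probe at 950: ctgatcataatttgaataagcaacttgcag
Atp5f1 probe at 298: ggctcacccctcgttgtgaccttcagcgac

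Complex IV has subunits that exist as a widespread and a muscle form. The muscle form Cox6a2 and the widespread form Cox6a1 were each read by probes of their own, and no probe outside the members holds the same 50 bases as a member probe:
Cox6a1 brighter probe: acgagagacccccgttcgttgcctaccctc
Cox6a2 probe: tcaaattggccttctgcacaccggctctga

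The 1 member probe with an unadjusted p-value under 0.05 in the comparison without a block was that of Ndufa12l, at position 594 of its transcript and with 44% G and C:
Ndufa12l probe: gaatgacaaagtcaatgaatgccctgccct

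A probe was tested when 4 or more of the 8 arrays gave it a detection p-value no higher than 0.05. This held for 100 of the 121 member probes, standing for 74 of the 82 genes, and for 17122 probes of the whole array. Of complex I, 48 probes were tested, of complex II 4, of complex III 6, of complex IV 16 and of complex V 23, with all 3 probes of Cycs. The members were bright, since 69 of the 100 tested probes lay among the brightest 25% of all tested probes. Each member signal rested on a median of 41 to 43 beads per array and on no fewer than 17, and the median bead standard error was 2.99 to 3.32% of the intensity. Values below are normalised log2 intensities, and each difference is the mean of Ac-LDL minus the mean of control arrays, n = 4 each.

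No probe was tested for 8 of the genes, and several of them encode core subunits. The probe of Ndufs1, the largest subunit of complex I, was detected on 0 of 8 arrays. Neither probe of Sdha, the flavoprotein of complex II, was detected on any array, and neither matched a RefSeq gene by its annotation. Uqcrfs1, the Rieske iron-sulphur protein of complex III, had 1 probe detected on 0 and 1 on 2 arrays, and Uqcrq, a small subunit of complex III, was detected on 0. These are subunits that every respiring cell uses, so no level of these genes was read from these probes. The tissue-restricted forms Cox4i2, Cox7b2, Cox8b and Cox8c were each detected on 0 arrays. One more probe of Sdhb was detected on 2 arrays, both of them Ac-LDL cultures, and was not tested.

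Among the 100 tested member probes, none passed an adjusted p-value of 0.05 by limma with Benjamini-Hochberg adjustment over all 17122 probes. Over the whole array 7 probes passed, or 0.0409%. Adding the replicate number as a block left 0 members and 0.444% of all probes, and a block for the slide 0 members and 0.321%. The lowest adjusted p-value of any member was 0.921 without a block, 0.253 once replicates were blocked and 0.248 once slides were. At an unadjusted p-value under 0.05 there was 1 member (5.2% of all tested probes), 3 with the replicate block (13.8% of all) and 2 with the slide block (12.1% of all). For 0 members were the values of both groups fully apart, against 3.8% of all tested probes. The share of all probes passing the adjusted test was too low to read 0 of 100 as a difference, and by the unadjusted counts the members' share lay below that of the array.

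The differences were also small. The median difference over the 100 member probes was -0.003, against 0.001 over all tested probes, and the range was -0.32 to 0.25. Without regard to sign, the median difference was 0.061 for members and 0.093 for all tested probes, with median standard errors of 0.110 and 0.126. No member differed by more than 1.4-fold, while 209 probes of the array (1.22%) did. The 95% confidence interval lay wholly within 1.4-fold in either direction (0.49 on the log2 scale) for 88 of the 100 members and for 73.1% of all tested probes. Among those brightest 25%, where the standard errors were smallest, this was so for 68 of 69 members and 81.1% of all probes. Higher values with Ac-LDL were seen for 46 of 100 members and 50.4% of all probes. That count depends on scaling. Centring each array on the median of its 45281 probes, in place of quantile normalization, left 8 of 100 higher. It put the median of all tested probes at -0.091 and the medians of complexes I to V between -0.13 and -0.08.

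**Figure D1:**
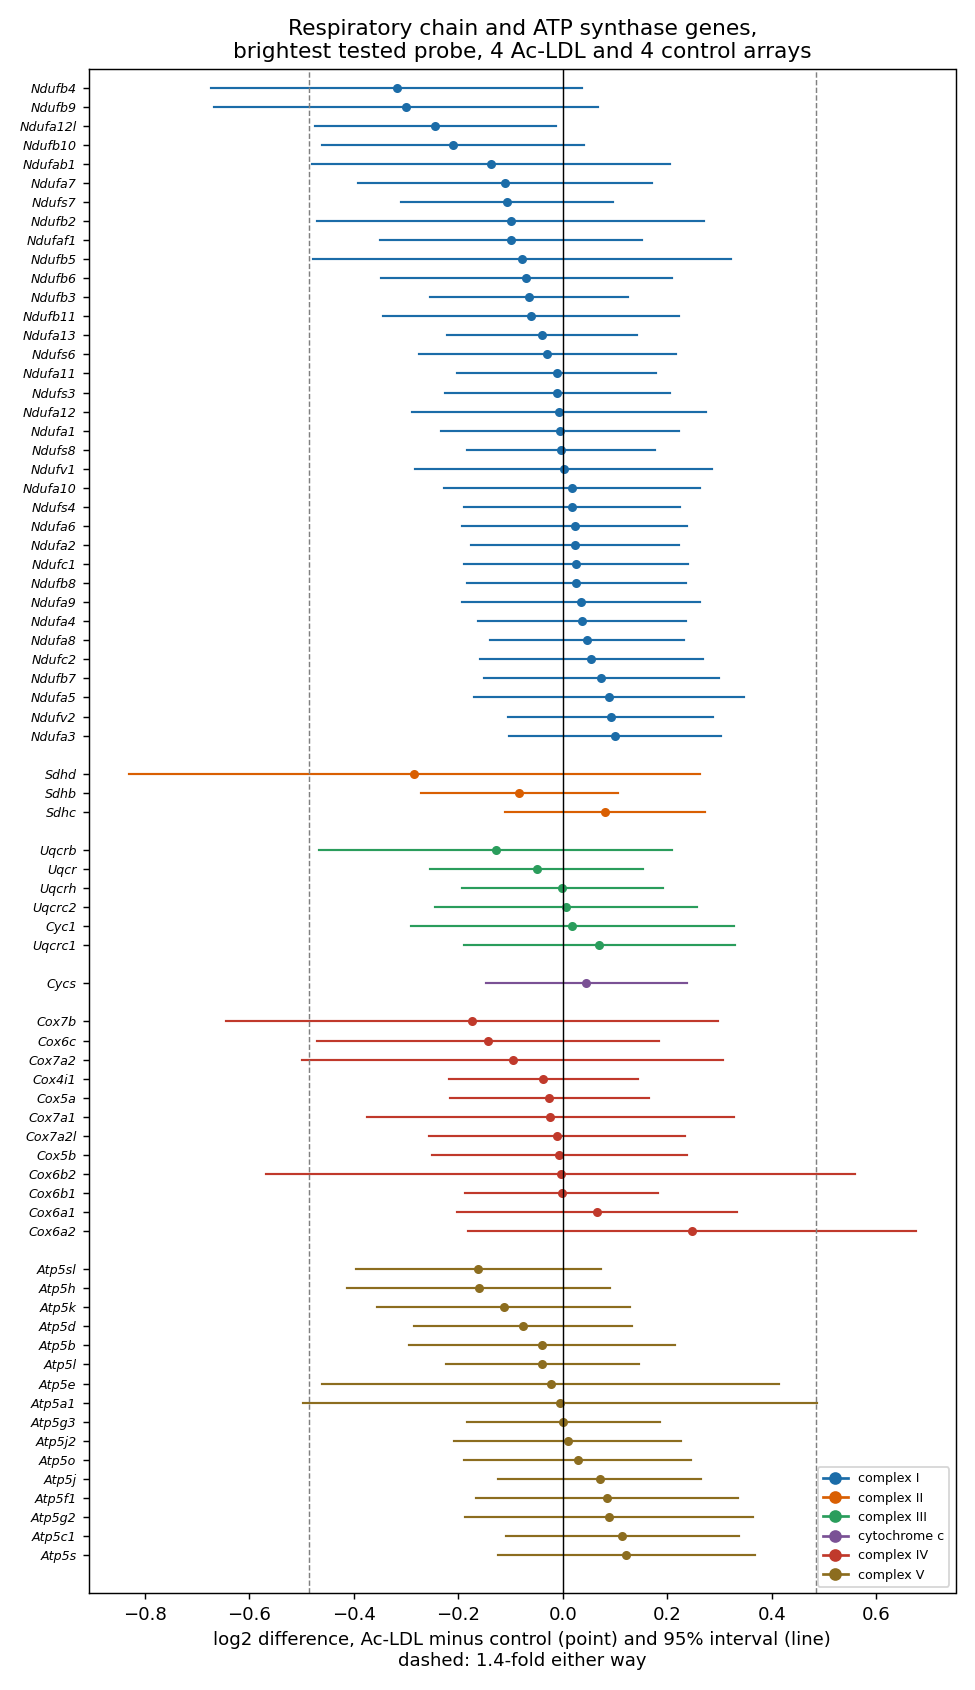
Log2 difference between 4 Ac-LDL and 4 control arrays (x axis, log2 units) for the brightest tested probe of 73 of the 74 genes (y axis), grouped and coloured by complex. Points are limma estimates from the fit without a block, lines are its 95% confidence intervals and dashed lines mark 1.4-fold. Every point lies between -0.32 and 0.25, and in this fit 1 interval, that of Ndufa12l, leaves out 0.

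Complex I oxidises NADH and is the largest of the complexes. The median difference over its 48 tested probes was -0.008, and 21 were higher with Ac-LDL. Ndufv1, which binds NADH and the flavin, read 11.83, 11.81, 11.50 and 11.52 in controls 1 to 4 and 11.86, 11.79, 11.51 and 11.50 with Ac-LDL. The groups overlapped throughout, and the difference was 0.00 with a 95% interval of -0.28 to 0.29. Ndufs8, a carrier of iron-sulphur clusters, differed by 0.00 (standard error 0.08) and Ndufs3 by -0.01 (standard error 0.10). Ndufv2 stood at 0.09 (interval -0.10 to 0.29) and Ndufs7 at -0.11 (interval -0.31 to 0.10).

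The largest differences of complex I were in accessory and assembly genes and pointed down. Ndufa12l, whose product helps to assemble complex I, read 8.53, 8.45, 8.73 and 8.67 in controls 1 to 4 and 8.28, 8.46, 8.21 and 8.46 with Ac-LDL. In pair 2 the arrays were level, and in the other 3 pairs the Ac-LDL array was lower. The means were 8.60 ± 0.13 and 8.35 ± 0.12 (SD, n = 4 each), a difference of -0.24 (standard error 0.10, 95% interval -0.47 to -0.01). The adjusted p-value was 0.921 by limma, 0.326 with replicates and 0.340 with slides as a block, and the exact two-sided permutation test over the 70 assignments of the arrays gave p = 0.0857, the smallest possible being 0.0286.

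Ndufb4, an accessory subunit of the membrane arm, was the only brightest probe of a gene that was lower in all 4 pairs. It read 5.78, 5.61, 5.92 and 6.03 in controls and 5.10, 5.46, 5.77 and 5.74 with Ac-LDL. The 2 highest Ac-LDL arrays, both on the second slide, lay within the range of the controls. The difference was -0.32 (standard error 0.16, interval -0.67 to 0.04), with an adjusted p-value of 0.949 by limma, 0.253 with replicates and 0.248 with slides as a block. With the replicate block the unadjusted limma p-value was 0.0154 and the interval was -0.56 to -0.08, which leaves out 0. The exact permutation p-value was 0.114. A second Ndufb4 probe, which matched no RefSeq gene, was detected on 0 arrays. Ndufb9 gave -0.30 (interval -0.67 to 0.07) and Ndufb10 -0.21 (interval -0.46 to 0.04), both by probes for which pairs 1 and 3 gave the lowest values. That Ndufb10 probe matched no RefSeq gene, and a second one that did gave -0.17 (interval -0.54 to 0.19).

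Ndufa3, another small accessory subunit, was the only gene of complex I whose brightest probe was higher in all 4 pairs. It read 11.82, 11.93, 11.74 and 11.70 in controls and 11.91, 11.98, 11.87 and 11.82 with Ac-LDL, a difference of 0.10 (interval -0.10 to 0.30, adjusted p = 0.979 by limma). Its second probe, which shares 27 bases with the first, gave 0.07 and was lower in pair 2. Over all members, 3 probes were higher and 1 was lower in all 4 pairs, against 1971 and 1789 of the 17122 tested probes. Ndufa4, long counted with complex I and since placed with complex IV, differed by 0.04 (interval -0.16 to 0.24).

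**Figure D2:**
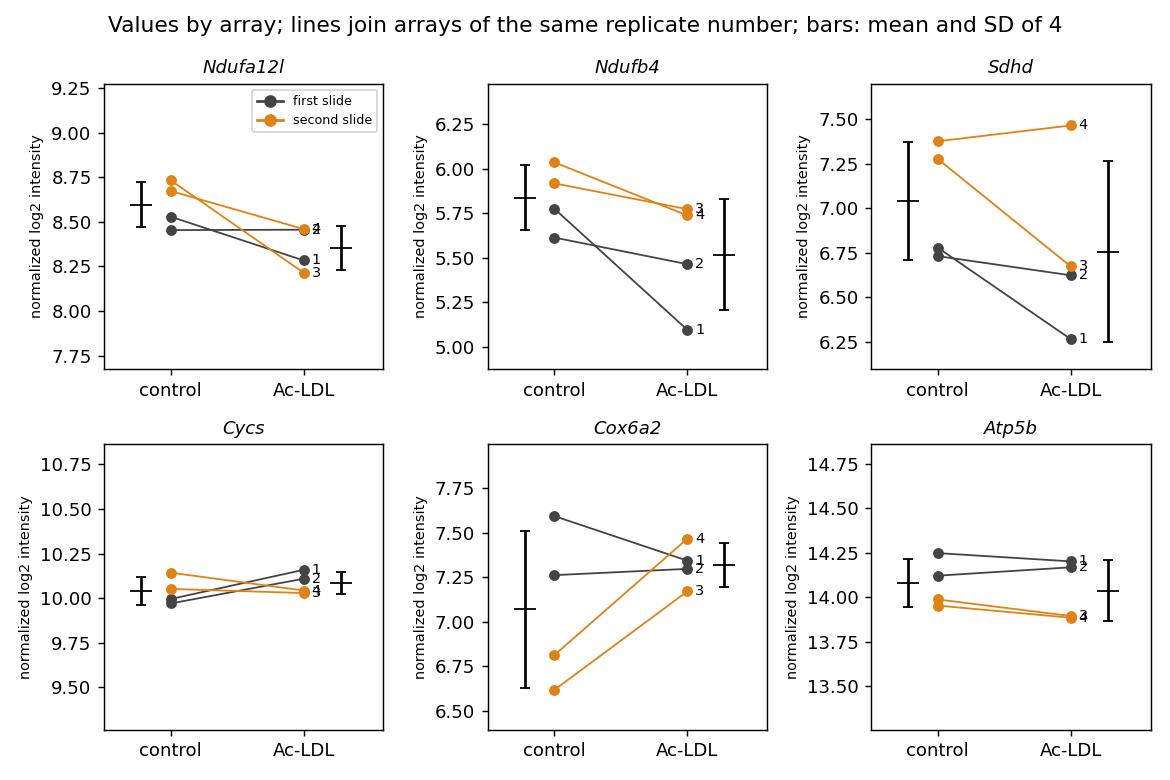
Normalised log2 intensity (y axis) on each array for 6 genes, with control and Ac-LDL on the x axis, lines joining arrays of the same replicate number, colour for the slide, and bars for the mean and SD of 4 arrays. The groups overlap in every panel, and the 2 arrays of each group on the second slide stand above those on the first for Sdhd and below them for Atp5b.

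Complex II oxidises succinate and links the chain to the citric acid cycle. Of its 4 tested probes 2 were higher, with a median of -0.001, or -0.083 with 1 value for each of its 3 genes. Sdhd, a membrane anchor, read 6.78, 6.73, 7.28 and 7.38 in controls and 6.27, 6.62, 6.67 and 7.46 with Ac-LDL. The first 3 Ac-LDL arrays were below every control, and the fourth was above them all. The difference was -0.28 with a wide interval of -0.83 to 0.26, and the adjusted p-value was 0.978 by limma; unadjusted it was 0.0471 with the replicate block. Sdhc, the other anchor, gave 0.08 (interval -0.11 to 0.27). Sdhb, the iron-sulphur subunit, was read by a pair of probes that share 49 of their 50 bases. The brighter gave -0.08 (interval -0.27 to 0.11) and the dimmer 0.11 (interval -0.09 to 0.30), the dimmer being higher in all 4 pairs.

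Complex III hands electrons from ubiquinol to cytochrome c. The median of its 6 tested probes was 0.003, with 3 higher, and all 6 intervals lay within 1.4-fold. Uqcrc1 and Uqcrc2, the core proteins, gave 0.07 (interval -0.19 to 0.33) and 0.01 (interval -0.24 to 0.26). Cyc1, which carries the haem that reduces cytochrome c, read 10.11, 10.04, 9.68 and 9.52 in controls and 9.96, 9.88, 9.84 and 9.74 with Ac-LDL. The controls of the first slide were above their Ac-LDL partners and those of the second slide below them, for a difference of 0.02 (interval -0.29 to 0.33). Uqcrb gave the lowest value of the complex, -0.13 (interval -0.47 to 0.21), by a probe that matched no RefSeq gene.

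Cycs, cytochrome c itself, also starts apoptosis once it leaves the mitochondrion. Its brightest probe read 9.99, 9.97, 10.05 and 10.14 in controls and 10.16, 10.11, 10.03 and 10.04 with Ac-LDL, a difference of 0.04 (interval -0.15 to 0.24). The Ac-LDL arrays were the higher ones on the first slide and the lower ones on the second. The same held for the medians of its 3 probes, at 0.16 and 0.15 in pairs 1 and 2 and -0.02 and -0.22 in pairs 3 and 4. The other probes, both dim, gave 0.00 and 0.08.

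Complex IV reduces oxygen to water. Its 16 tested probes had a median of -0.005, and 4 were higher with Ac-LDL. For 12 of the 16, the interval lay within 1.4-fold. Cox4i1, the subunit through which ATP restrains the enzyme, read 13.08, 12.99, 12.99 and 13.01 in controls and 12.92, 13.02, 12.99 and 12.99 with Ac-LDL. The first pair was the farthest apart, and the difference was -0.04 (interval -0.22 to 0.14). Cox5a gave -0.03 (interval -0.22 to 0.16) and Cox5b, by its brightest probe, -0.01 (interval -0.25 to 0.24). Cox7b, which is needed for assembly of the complex, gave -0.17 with an interval of -0.65 to 0.30, and Cox6c -0.14 (interval -0.47 to 0.18).

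The paired isoforms of complex IV were measured side by side. Cox6a1, the widespread form, gave 0.06 (interval -0.20 to 0.33) and 0.00 by probes that share 31 bases. Cox6a2, the heart and skeletal muscle form, was detected on all 8 arrays and gave the largest positive value of any member, 0.25 (interval -0.18 to 0.68, adjusted p = 0.968 by limma). Its values were 7.59, 7.26, 6.62 and 6.81 in controls and 7.34, 7.30, 7.17 and 7.47 with Ac-LDL. Only on the second slide were both Ac-LDL arrays above both controls. Cox7a1, the muscle form of subunit VIIa, was likewise detected on all arrays and gave -0.02 (interval -0.38 to 0.33), beside -0.10 (interval -0.50 to 0.31) for the widespread Cox7a2. Cox7a2l, which takes part in joining complexes III and IV into supercomplexes, gave -0.01 (interval -0.25 to 0.23) by its brightest probe. That probe matched no RefSeq gene, and a second one that did gave 0.04. Cox6b1 gave 0.00 (interval -0.19 to 0.18), and Cox6b2, the testis form, 0.00 with an interval of -0.57 to 0.56 by a probe detected on 5 of 8 arrays. Of the 6 muscle markers on the array, Acta1 was detected on 3 arrays, Mb on 2 and Myh6 on 1, and Ckm, Myh7 and Tnnt3 on 0. The part of muscle RNA in the values of Cox6a2 and Cox7a1 was not tested.

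Complex V makes ATP. Its 23 tested probes, with those of Atp5s and Atp5sl counted in by symbol, had a median of 0.03, and 14 were higher with Ac-LDL. Of the intervals, 20 lay within 1.4-fold. With 1 value for each of its 16 genes the median was -0.002. Atp5b, the catalytic subunit, read 14.25, 14.12, 13.99 and 13.95 in controls and 14.20, 14.17, 13.89 and 13.89 with Ac-LDL. Both groups stood higher on the first slide, and the difference was -0.04 (interval -0.29 to 0.21). Atp5a1, its partner in the catalytic head, gave -0.01 with a wider interval of -0.50 to 0.49. Atp5c1, the rotating stalk that couples the head to the membrane, read 11.94, 11.99, 11.94 and 12.03 in controls and 12.30, 12.08, 12.05 and 11.92 with Ac-LDL. The first 3 Ac-LDL arrays were above every control and the fourth was below all of them, for a difference of 0.11 (interval -0.11 to 0.34, adjusted p = 0.979 by limma). The c-ring genes Atp5g2 and Atp5g3 gave 0.09 (interval -0.19 to 0.36) and 0.00 (interval -0.18 to 0.19). Atp5h and Atp5o, both of the peripheral stalk, gave -0.16 (interval -0.41 to 0.09) and 0.03 (interval -0.19 to 0.25). A second probe of Atp5o was higher in all 4 pairs, at 0.15, with an interval of -0.13 to 0.44.

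**Figure D3:**
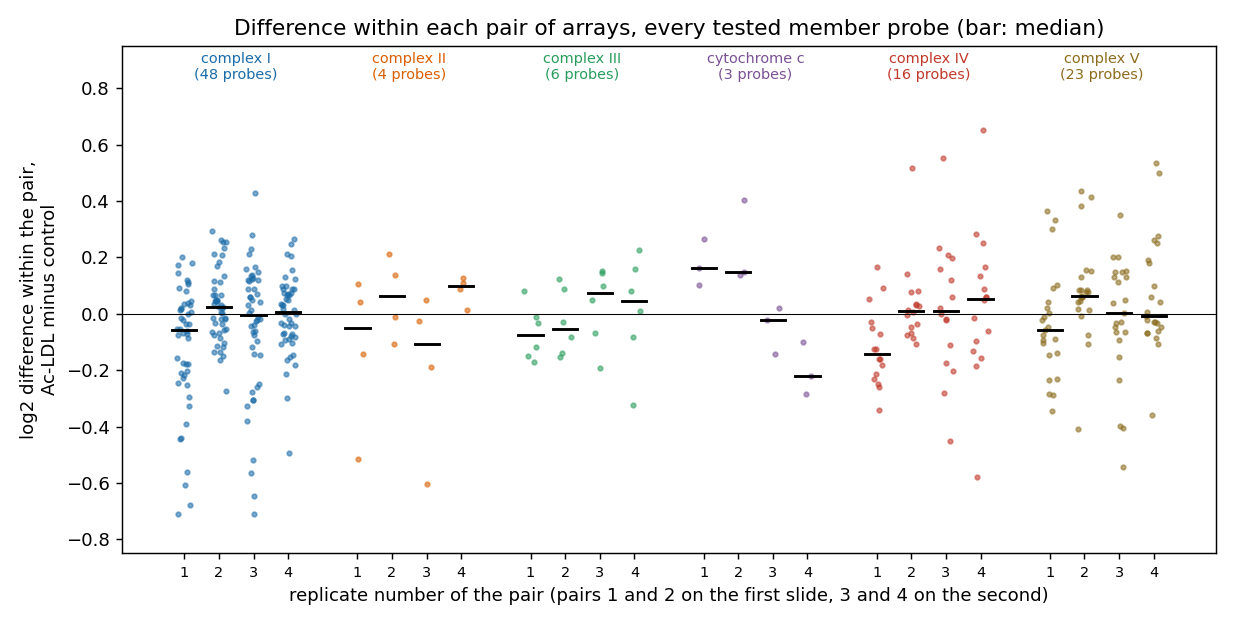
Ac-LDL minus control within each numbered pair of arrays (y axis, log2 units), for the 100 tested member probes, by complex and pair (x axis). Points are probes and bars are medians over probes; over all members the medians were -0.065, 0.035, 0.002 and 0.012 in pairs 1 to 4.

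The pairs did not move the members one way. The median over members was -0.065 in pair 1, 0.035 in pair 2, 0.002 in pair 3 and 0.012 in pair 4. Complex IV had the lowest median of pair 1, -0.14, with -0.06 for complex I and for complex V. In pair 2 the medians were 0.02 for complex I, 0.01 for complex IV and 0.06 for complex V. Within the first slide the median difference over members was -0.012 and within the second 0.003.

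More of the members' variation followed the slide than the treatment. Replicates 1 and 2 of both groups were on the first slide and 3 and 4 on the second, so each slide held 2 arrays of each group. Of a member's sum of squares over the 8 arrays, the median share taken by the slide was 39.5%, against 30.6% for all tested probes. Treatment took 5.31% (all probes 7.93%), the replicate number within a slide 16.7% (all 16.7%) and the remainder 25.3% (all 21.8%). The slide's median share was 73.1% in complex III and 50.7% in complex IV, and 17.7% in complex V. Over the 4 probes of complex II the order was the other way, with 15.6% for the slide and 35.04% for treatment. Atp5b, Cyc1, Ndufv1 and Uqcrc1 were all higher on both controls of the first slide than on both of the second, and Cox6c, Cox7a2, Uqcrb and Sdhd were lower. What else differed between the slides is not given in the labels.

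**Figure D4:**
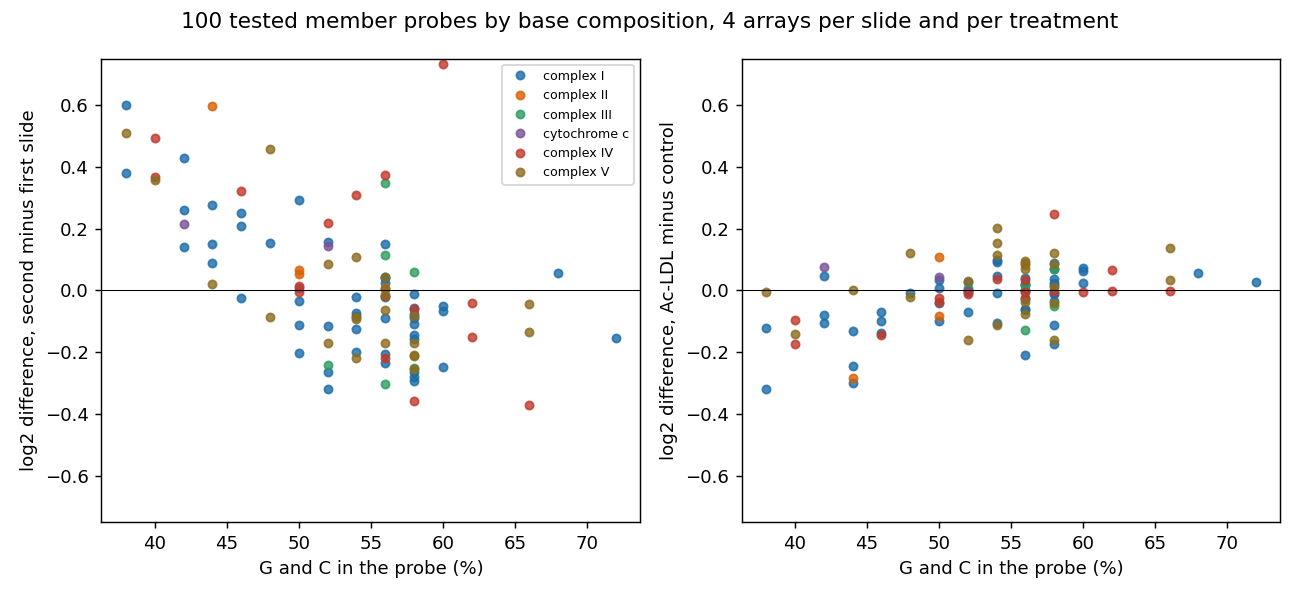
Share of G and C in each of the 100 tested member probes (x axis, percent) against its log2 difference between the second and first slide (left, y axis) and between Ac-LDL and control (right, y axis); points are probes, coloured by complex. Of 22 probes below 50% G and C, 20 lie above 0 on the left and 4 on the right.

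Which way a member differed between slides went with the bases of its probe. Across the 100 tested member probes, Spearman's rho between the share of G and C and the difference of the second from the first slide was -0.56, beside -0.24 across all tested probes. With the treatment difference it was 0.39 for members and 0.14 for all. Probes are not independent, since they share 8 arrays and some share a gene, and brighter probes also tended to be lower on the second slide (rho -0.37 with the level). Of the 22 member probes with less than 50% G and C, 20 were higher on the second slide, with a median of 0.27, and 4 were higher with Ac-LDL, with a median difference of -0.10. Of the other 78, 24 were higher on the second slide and 42 with Ac-LDL (medians -0.075 and 0.01). In pairs 1 to 4 the median treatment difference of the 22 was -0.21, 0.10, -0.25 and -0.08, so pair 2 went the other way. The 22 were also dimmer, with a median level of 8.32 against 10.70 for the 78. Over the whole array, 39.4% of probes below 50% and 53.6% of the others were higher with Ac-LDL.

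Several probes under 1 symbol could be compared for the genes whose probe sequences are printed above. The Ndufs4 probe with 58% G and C gave 0.02 for treatment and -0.11 for the second against the first slide. The 3 with 42 to 46% gave -0.13, -0.07 and -0.10 for treatment, and 0.15, 0.21 and 0.26 for the slide. For Ndufa5 the bright probe gave 0.09 and -0.16, and the dim probe with 38% gave -0.12 and 0.60. For Atp5f1 the probe with 40% G and C gave -0.14 for treatment and 0.36 for the slide, and the other 3 gave 0.08, 0.12 and 0.10 for treatment and -0.21, -0.09 and -0.17 for the slide. The second of these, with 48% G and C, thus had the signs of the probes above 50%. The third was the dim probe that matched no RefSeq gene. Of the 20 genes with several tested probes, 11 had probes of opposite sign for treatment and 6 for the slide. Probes of equal G and C were among the 11. Those of Sdhb, both with 50%, gave -0.08 and 0.11, and those of Cox6a1, both with 62%, gave 0.06 and -0.003. The probes of Ndufa12l (44%), Ndufb4 (38%), Ndufb9 (44%) and Sdhd (44%), which gave the lowest treatment values of all members, were all below 50%. Those of Ndufb10, with 56% and 58%, came next at -0.21 and -0.17. The part of base composition in these differences was not tested.

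The rule took genes by name only, so their promoters were read for shared letters. RefSeq windows from 250 bases before to 50 after the start (GRCm38.p6) matched 66 of the 82 genes, in 72 windows. The motifs of 4 factors known to act on nuclear genes for mitochondrial proteins were searched on both strands: GCATGCGC for NRF1, CCGGAAGT for GABPA, AAGATGGC for YY1 and TCAAGGTCA for ESRRA. The NRF1 letters stood in 15.3% of the members' windows, in 5.11% of those of all genes with a tested probe and in 2.71% of all windows of the table. The YY1 letters stood in 16.7%, 4.42% and 2.75%, the ESRRA letters in 2.78%, 0.324% and 0.423%, and the GABPA letters in 5.56%, 8.19% and 3.89%. The median G and C of the windows was 58.0%, 60.7% and 52.7%. Of the 11 genes with the NRF1 letters 3 belonged to complex I, 1 to II, 2 to III, 1 to IV and 3 to V, and 1 was Cycs. The YY1 letters were found in 7 genes of complex I, Ndufa3 among them, and in 4 of complex V.

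For 4 of the genes with the NRF1 letters, a stretch of 60 bases around the match, within the 250 bases before the start, is printed 5′ to 3′ on the gene's strand, with the matches in capitals. In Ndufa11 and Cox6a1 a match on each strand overlaps the other, which makes the run of capitals longer. The first is at chr17:56717677-56717736 on the plus strand, the next at chr4:140961191-140961250 (plus), then chr5:115349086-115349145 (minus) and chr6:50566596-50566655 (minus), all in GRCm38.p6:
Ndufa11: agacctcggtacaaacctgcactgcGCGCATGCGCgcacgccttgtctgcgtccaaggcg
Sdhb: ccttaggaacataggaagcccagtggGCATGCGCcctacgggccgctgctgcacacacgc
Cox6a1: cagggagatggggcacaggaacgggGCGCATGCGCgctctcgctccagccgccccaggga
Cycs: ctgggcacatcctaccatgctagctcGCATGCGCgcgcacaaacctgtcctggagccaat

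The treatment differences of these 4 genes by their brightest probes were -0.01 for Ndufa11 (interval -0.20 to 0.18), -0.08 for Sdhb, 0.06 for Cox6a1 and 0.04 for Cycs. A match is a run of letters and was not tested as a binding site.

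Genes that work beside the nuclear subunits were counted from lists of their own, each gene by its brightest tested probe, and in none of the lists did a gene pass an adjusted p-value of 0.05 with or without a block. Of the subunits encoded in mitochondrial DNA, 7 of the 8 on the array were tested and 6 were higher, with a median of 0.03. mt-Cytb, of complex III, gave 0.04 (interval -0.28 to 0.37). The complex I genes mt-Nd1 and mt-Nd4 gave 0.09 (interval -0.39 to 0.56) and 0.07 (interval -0.21 to 0.34). For mt-Co2, of complex IV, the difference was 0.00 (interval -0.77 to 0.77), and for mt-Atp6, of complex V, 0.03 (interval -0.58 to 0.64). mt-Nd4l gave -0.20 with an interval of -0.75 to 0.35. Assembly factors outside the symbol rule had 11 of 20 tested genes higher (median 0.04), regulators of mitochondrial biogenesis 5 of 16 (median -0.03), and genes of the citric acid cycle and pyruvate dehydrogenase 8 of 16 (median 0.00). Mitochondrial translation and import had 14 of 35 higher (median -0.03) and glycolysis 13 of 17 (median 0.08). Of the factors whose letters were searched, Nrf1 itself differed by -0.01 (interval -0.28 to 0.26), Gabpa by -0.09 (interval -0.46 to 0.28) and Esrra by 0.08 (interval -0.11 to 0.27).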

How the data were processed

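RNA of 8 macrophage cultures was measured on Illumina bead chips. The labels name total RNA, and the methods mRNA purified from it. Per the labels, the arrays were exported with BeadStudio. The authors deposited, for each probe and array, a signal intensity that was neither background-corrected nor normalized, its standard error over beads, the number of beads, and a detection p-value; the deposited detection p-value ranks the probe against negative controls. The authors' values normalized in GeneSpring GX were not used here, a genome build for the array's annotation was not given in the sources used here, and 0 per-sample columns were left unmapped.

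In R 4.3.3, limma 3.58.1 corrected the deposited intensity for background (neqc, negative controls inferred from the detection p-values, offset 16), quantile-normalized it and took log2. Probes detected (p-value up to 0.05) on 4 or more arrays were fitted with lmFit and eBayes on 2 groups of 4, without a block, and p-values were adjusted by Benjamini-Hochberg over all 17122 tested probes. The procedure was tested on simulated data. Intervals are 95% from the same fit. Replicates 1 and 2 of each group shared the first slide and 3 and 4 the second. Deviations from the group means correlated between same-numbered arrays at 0.579, 0.479, 0.468 and 0.629, and between differently numbered arrays of 1 slide at 0.343, 0.429, 0.447 and 0.188. Across the member probes alone, the correlation of same-numbered arrays ranged from 0.197 to 0.650. The numbers were taken to pair the arrays, which also share a slide, and values with the block are given where they change a count. Where a gene had several probes, its brightest tested probe stands for it unless stated. Genes named by rule were those passing the test, those without overlap between groups, those with 1 direction in all 4 pairs, core subunits and isoforms; others, such as Ndufa12l, Ndufb9 and Uqcrb, were chosen after their values were seen. One member gene is counted but its own values are not reported here. Members and lists were chosen with earlier results of these data known. Member probes matched a RefSeq gene, by the gene or transcript identifier of their annotation, for 112 of 121. Alternatives covered background, offset, scaling, filters, the prior, blocks, the methods' t-test, omitted arrays and single slides. Intervals cover the spread between arrays, whose number limits the precision.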

Additional observations from a re-analysis of the deposited data

Results flagged for a closer look

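In all, 172 groups of 4 arrays were examined for a value set far apart from the rest. They came from the tested members, the genes of the other lists with an unadjusted p-value under 0.05, and the mean deviations of the complexes and of all members. The limit would flag 5% of sets of 4 independent normal values, or about 8.6. Each group held 2 arrays of each slide, so its values were not independent and 8.6 is no chance expectation here. Among the groups 1 stood out. It was Etfb, the beta subunit of the flavoprotein that passes electrons from fatty acid oxidation to ubiquinone, which is not a member. Ac-LDL replicate 2 read 11.64, while the other 3 Ac-LDL arrays lay between 11.47 and 11.50. Without that array the Etfb difference was 0.25 in place of 0.29, and it did not pass the adjusted test either way.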

How the results depend on the processing

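The number of members passing an adjusted p-value of 0.05 was 0 under all alternatives run, and leaving out arrays or pairs gave 0 to 0. Over the whole array the most to pass was 76 of 17122 probes, with the replicate block. With no filter, or with any 1 pair left out, 0 probes of the array passed. Such shares were too low to read 0 members as a result about the members. Quantile normalization against median centring made the largest change. Under centring, the median was -0.11 for all members. It was -0.13 for complex I, -0.13 for complex II, -0.11 for complex III, -0.12 for complex IV and -0.075 for complex V. Of the 100 member probes 8 were higher, and the median of all tested probes was -0.091. The number of members with an unadjusted p-value under 0.05 was 1 without a block, beside 5.2% of all tested probes. It was 3 with the replicate block, pairing arrays by number (13.8% of all), and 2 with the slide block (12.1%). Median centring gave 3 (6.43% of all), and no filter gave 3 of all 121 probes (5.06% of the array). It was 2 within the first slide (14.1% of all) and 3 within the second (6.25%). Leaving out single arrays or pairs gave 0 to 4: it was 0 without Ac-LDL replicate 1, control replicate 3, control replicate 4 or pair 3, and 4 without control replicate 2 or Ac-LDL replicate 4. Across these omissions the share of all tested probes was 3.17% to 6.63%. The same omissions gave 44 to 58 higher probes and medians of -0.0238 to 0.0159 for all members, -0.0352 to 0.0255 for complex I, -0.0236 to 0.0350 for complex II, -0.0417 to 0.0323 for complex III, -0.0356 to 0.0143 for complex IV and 0.00170 to 0.0514 for complex V. With 1 value per gene the medians were -0.083 for complex II and -0.002 for complex V. The methods' t-test gave 1 member at an unadjusted p-value under 0.05 and 0 after Benjamini-Hochberg adjustment (1039 and 0 probes of the whole array). For single genes, 1891 of 1917 values over 80 genes and 24 alternatives kept their sign or moved by less than the spread between pairs. The other 26 changed sign and moved by at least that spread. No value passed the adjusted test, and the lowest adjusted p-value was 0.0757, by limma with slides as a block. The cause of these shifts was not tested.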

Other observations

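A further list held mitochondrial carriers and channels, electron-transfer proteins, ubiquinone synthesis genes and the ATP synthase inhibitor Atpif1. Of its 18 tested genes 15 were higher with Ac-LDL, with a median of 0.10 against 0.001 for all tested probes. Among them 0 passed an adjusted p-value of 0.05 by limma. For 5 genes there was an unadjusted p-value under 0.05, 4 of them higher and 1 lower, against 5.2% of all tested probes. Slc25a20, which carries acylcarnitines into the mitochondrion for fatty acid oxidation, read 9.42 ± 0.06 in controls and 9.79 ± 0.05 with Ac-LDL (SD, n = 4 each), a difference of 0.37 (95% interval 0.19 to 0.56). The groups did not overlap, and the adjusted p-value was 0.316 by limma, 0.100 with replicates and 0.0757 with slides as a block. Etfb and Etfdh, which pass electrons from fatty acid oxidation to ubiquinone, gave 0.29 (interval 0.05 to 0.53) and 0.24 (interval 0.02 to 0.46), and Slc25a11, the oxoglutarate carrier, 0.25 (interval 0.04 to 0.45), each higher in 4 of 4 pairs. Slc25a1, which exports citrate for lipid synthesis, gave -0.31 (interval -0.57 to -0.05) and was lower in 4 of 4 pairs. Of the biogenesis genes, Mterfd1, a mitochondrial transcription terminator family protein, gave -0.25 (interval -0.46 to -0.04), with no overlap between groups and an adjusted p-value of 0.854 by limma. These genes were named after their values were seen.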
